A study of Mus musculus with 10 samples.

Results

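The apolipoprotein L genes described here were Apol6, Apol9a, Apol9b and Apol10b, measured in 2 lines of B16-F10 mouse melanoma cells with and without interferon gamma (IFN-γ). They are 4 of the 77175 entries of the count table, selected on their measured values over all 10 samples, as the Apol genes that were nearly silent in untreated cells and expressed with IFN-γ. The values with and without IFN-γ are therefore described without a test, and tests are given only between the lines. The other 11 entries of the family are given for comparison.

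Bulk RNA sequencing covered the B16-F10-OVA line with IFN-γ (OVA IFN-γ, 3 libraries), the parental B16-F10 line with IFN-γ (WT IFN-γ, 3 libraries), untreated B16-F10-OVA (2 libraries) and untreated B16-F10 (2 libraries). IFN-γ was given at 50 ng/ml for 24 h. B16-F10-OVA carries the lentiviral construct pLV[Exp]-Neo-EF1A>{ovalbumin}, which expresses the model antigen ovalbumin from the EF1A promoter, and the labels do not say whether the line is a single clone. The comparison of the lines asked whether they respond differently to IFN-γ. Library totals ran from 17728722 to 19642533 counts. The labels call the cells melanoma, and all 7 melanocyte markers examined (Mitf, Sox10, Pmel, Tyr, Tyrp1, Dct and Mlana) were expressed, at 23096 to 24500 CPM (counts scaled to library size) summed per library. T cell markers summed to at most 0.329 CPM and macrophage markers to at most 4.12 CPM. Dendritic, endothelial and fibroblast markers summed to at most 11.1, 16.01 and 7.62 CPM.

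Apolipoprotein L proteins are named after human APOL1, a blood protein carried on high-density lipoprotein that lyses trypanosomes, but most of the family stays inside the cell. They contain amphipathic and membrane-binding regions and act on lipid membranes. Human APOL3 works together with guanylate-binding proteins against bacteria in the cytosol of IFN-γ treated cells, and human APOL6 has been studied for a BH3-like stretch and cell death when overproduced. Mouse Apol9a and Apol9b are near-identical copies whose proteins bind phosphatidylethanolamine and have been studied in antiviral defence together with Pebp1, a phosphatidylethanolamine-binding protein. IFN-γ acts through its receptor and the kinases Jak1 and Jak2 on genes with GAS elements. The factors Irf1 and Irf9 act at interferon-stimulated response elements (ISRE).

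Promoter sequences show how alike the Apol9 copies are and where ISRE-type letters lie. RefSeq windows around the annotated start (build GRCm38.p6, 5′ to 3′ on the gene's strand) were at hand for 3 of the 4 genes, Apol9a (chr15:77411031-77411330, minus strand), Apol9b (chr15:77728822-77729121, plus strand) and Apol10b (chr15:77596076-77596375, minus strand). Capitals mark matches to an ISRE core, defined as GAAA, then 2 bases of any kind, then GAAA, searched on both strands and here all on the strand opposite the gene.
Apol9a: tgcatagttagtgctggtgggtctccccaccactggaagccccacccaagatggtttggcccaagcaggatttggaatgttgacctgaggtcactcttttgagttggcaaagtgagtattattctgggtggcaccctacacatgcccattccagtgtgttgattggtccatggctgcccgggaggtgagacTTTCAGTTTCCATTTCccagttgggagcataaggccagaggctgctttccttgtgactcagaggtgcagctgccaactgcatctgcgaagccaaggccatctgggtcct
Apol9b: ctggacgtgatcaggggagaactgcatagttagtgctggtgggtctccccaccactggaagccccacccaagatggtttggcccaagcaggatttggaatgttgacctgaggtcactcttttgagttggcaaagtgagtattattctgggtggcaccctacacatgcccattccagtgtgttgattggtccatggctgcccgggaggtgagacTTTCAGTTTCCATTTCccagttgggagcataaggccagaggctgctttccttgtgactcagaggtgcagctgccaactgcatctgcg
Apol10b: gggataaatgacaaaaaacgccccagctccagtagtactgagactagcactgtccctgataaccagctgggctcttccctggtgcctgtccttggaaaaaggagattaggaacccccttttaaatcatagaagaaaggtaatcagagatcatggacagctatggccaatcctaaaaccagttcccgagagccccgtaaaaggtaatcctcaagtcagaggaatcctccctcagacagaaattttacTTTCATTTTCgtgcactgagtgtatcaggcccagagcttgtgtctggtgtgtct
The windows of Apol9a and Apol9b were identical in 278 of 278 overlapping bases, with the annotated starts offset by 22 bases. Each held 2 overlapping ISRE-type matches, the first at positions -59 to -50 of Apol9a and -37 to -28 of Apol9b, counting the first transcribed base as 1. RefSeq lists a second start for both genes, from which the same match lies at -105 to -96 in Apol9a and -86 to -77 in Apol9b. Apol10b held 1 match, across its annotated start at positions -4 to 6. Such a match occurred in 3.44% of 32851 promoter windows of the same length. A GAS core (TTCNNNGAA) was not found in these windows, and it occurred in 8.30% of all windows. These matches are letters only and do not show that a factor binds.

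Apol6 (ENSMUSG00000033576), first in order on chromosome 15, had 184, 182 and 181 CPM in the OVA IFN-γ libraries, against 194, 204 and 206 CPM in the WT IFN-γ libraries. The untreated libraries held 3 and 5 counts of Apol6 in OVA and 0 and 2 counts in WT. All 6 treated libraries stood far above the 4 untreated ones, and the treated OVA libraries lay below the treated WT libraries. The ratio of normalised counts with IFN-γ over untreated was 838 in OVA (95% counting interval 425 to 1941) and 3627 in WT (1004 to 29951), where the denominator is 2 counts in all.

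Apol9a (ENSMUSG00000057346) had 194, 193 and 200.9 CPM in OVA IFN-γ and 169, 168 and 179 CPM in WT IFN-γ. Untreated OVA libraries held 9 and 9 counts, while untreated WT libraries held 1 and 0. OVA was above WT without overlap in both conditions. Among untreated libraries, 2 per line, this also held for Apol6 and Apol9b, and the share over all genes is not given here. The ratio of IFN-γ to untreated was 399.9 in OVA (253 to 675) and 6176 in WT (1108 to 243980), the WT value resting on 1 untreated count.

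Apol9b (ENSMUSG00000068246), the copy of Apol9a on the other strand of the same cluster, had 168, 174 and 181 CPM in OVA IFN-γ, against 155, 154 and 159 CPM in WT IFN-γ. It was the one gene of the 4 with more than 3 untreated counts in both lines, 10 and 9 in OVA and 8 and 5 in WT. Its ratios of IFN-γ to untreated were 337 in OVA (216 to 561) and 432 in WT (252 to 811), with overlapping intervals.

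Apol10b (ENSMUSG00000050014) was the lowest of the 4 after treatment, at 26.3, 26.2 and 26.6 CPM in OVA IFN-γ and 26.1, 24.3 and 23.5 CPM in WT IFN-γ. A single count was seen among the 4 untreated libraries, in OVA replicate 2. Against that count the ratio in OVA was 968 (174 to 38274), and in WT the level with IFN-γ was at least 295-fold higher than a floor of 3 counts summed over the untreated group. Intervals and floors cover counting error only. In bulk RNA, expression in more cells and more RNA per cell cannot be told apart, so these ratios do not separate the fraction of responding cells from the response of each.

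**Figure D1:**
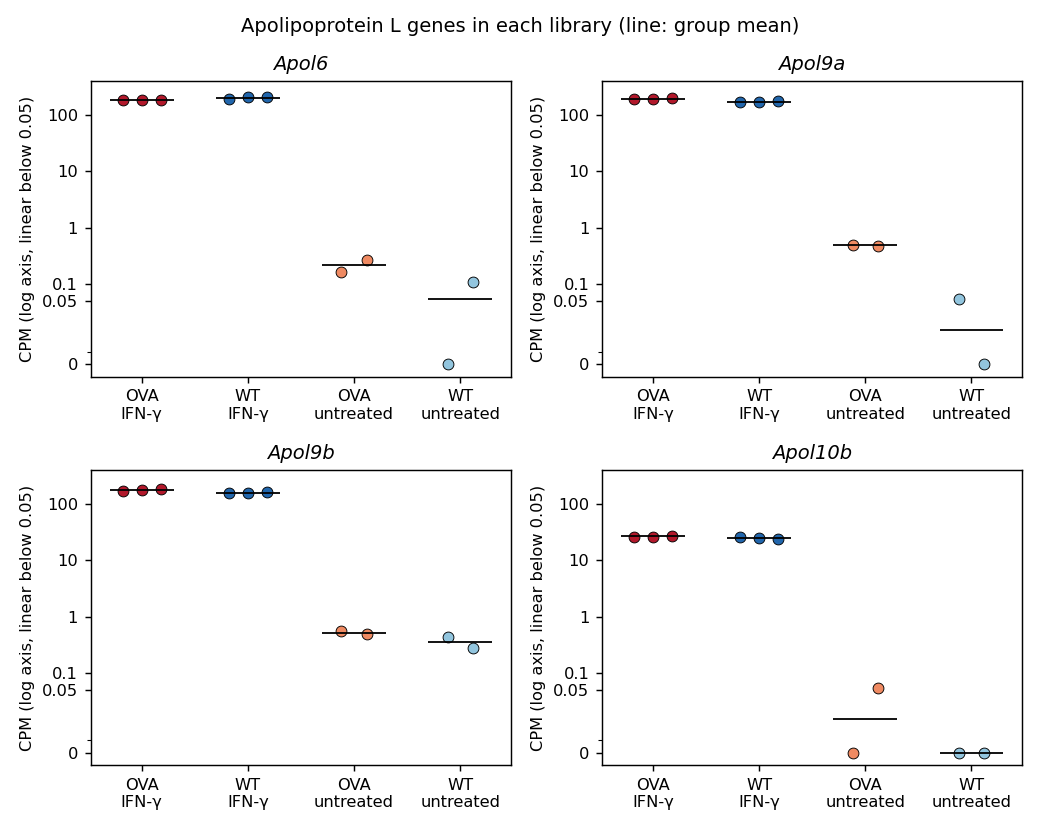
CPM of Apol6, Apol9a, Apol9b and Apol10b in each of the 10 libraries, with points for libraries and lines for group means, on a log axis that is linear below 0.05. Treated libraries of both lines lie between 154 and 206 CPM, or near 25 CPM for Apol10b, and no untreated library reaches 1 CPM.

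The 4 genes passed the filter on low counts through their treated libraries alone. With IFN-γ, 48.8% of the 15526 tested genes were called in OVA, 25.9% higher and 22.9% lower, and 44.2% in WT, 24.5% higher and 19.7% lower (edgeR quasi-likelihood test, Benjamini-Hochberg adjusted p under 0.05). These shares are background only for the 4 genes, which were selected on that contrast. By CPM, 975 tested genes stood above Apol9a in OVA IFN-γ, and 1210 in WT IFN-γ. Apol10b had 6860 genes above it in OVA IFN-γ and 7042 in WT IFN-γ. Divided by the length of the longest coding transcript, Apol9a had the highest level, 128 ± 2.88 CPM per kb in OVA IFN-γ and 112 ± 3.88 in WT IFN-γ (SD, n = 3 each). Apol9b followed with 111 ± 4.00 CPM per kb in OVA IFN-γ and 99.2 ± 1.88 in WT IFN-γ. Apol6 had 78.8 ± 0.503 CPM per kb in OVA IFN-γ and 87.1 ± 2.84 in WT IFN-γ, and Apol10b 11.3 ± 0.0921 and 10.6 ± 0.592 in the same groups. The libraries of neighbouring genes in this order did not overlap within a line. The order depended on the length used. Over the length of all annotated exons, chosen after seeing the data, Apol9b came first, with 95.8 ± 3.45 CPM per kb in OVA IFN-γ and 85.7 ± 1.62 in WT IFN-γ, and Apol9a, with 32.9 ± 0.740 in OVA IFN-γ and 28.8 ± 0.998 in WT IFN-γ, came after Apol6, with 40.5 ± 0.259 in OVA IFN-γ and 44.8 ± 1.46 in WT IFN-γ. Apol10b was lowest by either length. The Apol9a and Apol9b values also depend on how reads that map to both were counted, which is not given.

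The lines were compared among treated libraries, a contrast that did not choose the genes. Apol9a and Apol9b rose in OVA relative to WT, Apol6 fell, and Apol10b did not pass the test. In all 4 genes the 3 OVA libraries did not overlap the 3 WT libraries, as was the case for 31.1% of all tested genes. Across all genes 14.4% were called in either direction, 6.36% higher and 7.99% lower in OVA, and the median absolute log2 difference of those called was 0.21.

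Apol9a averaged 196 ± 4.41 CPM in OVA IFN-γ and 172 ± 5.94 CPM in WT IFN-γ (SD, n = 3 each). Its log2 difference, OVA minus WT, was 0.19 (SE 0.033, 95% interval 0.119 to 0.260, edgeR adjusted p = 0.00101), or 14.1% higher in OVA. Apol9b averaged 174 ± 6.29 CPM in OVA IFN-γ and 156 ± 2.96 CPM in WT IFN-γ. Its log2 difference was 0.16 (SE 0.033, interval 0.0910 to 0.230, edgeR adjusted p = 0.00339), or 11.8% higher in OVA. The intervals of the Apol9 copies overlapped.

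Apol6 went the other way, with 182 ± 1.16 CPM in OVA IFN-γ and 202 ± 6.57 CPM in WT IFN-γ. Its log2 difference was -0.14 (SE 0.034, interval -0.217 to -0.0721, edgeR adjusted p = 0.00922), a change of -9.54%. Apol10b averaged 26.4 ± 0.214 CPM in OVA IFN-γ and 24.6 ± 1.38 CPM in WT IFN-γ. Its log2 difference of 0.098 had an interval of -0.038 to 0.234 (edgeR adjusted p = 0.345), and its nearest libraries were at 26.2 CPM in OVA and 26.1 CPM in WT. The coefficient of variation over the 3 OVA IFN-γ libraries was 0.638% for Apol6, 2.25% for Apol9a, 3.61% for Apol9b and 0.812% for Apol10b, where the median over 6983 genes of 20 to 250 CPM was 3.30%. Over the 3 WT IFN-γ libraries it was 3.26%, 3.46%, 1.89% and 5.59% for the same genes, where the median was 3.47%. These values thus lay near or below the median of their group, except for Apol10b in WT. Apol10b lies at the low end of that range of CPM, so the median is not one of genes of its level. With 3 libraries per group the coefficient is also imprecise.

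**Figure D2:**
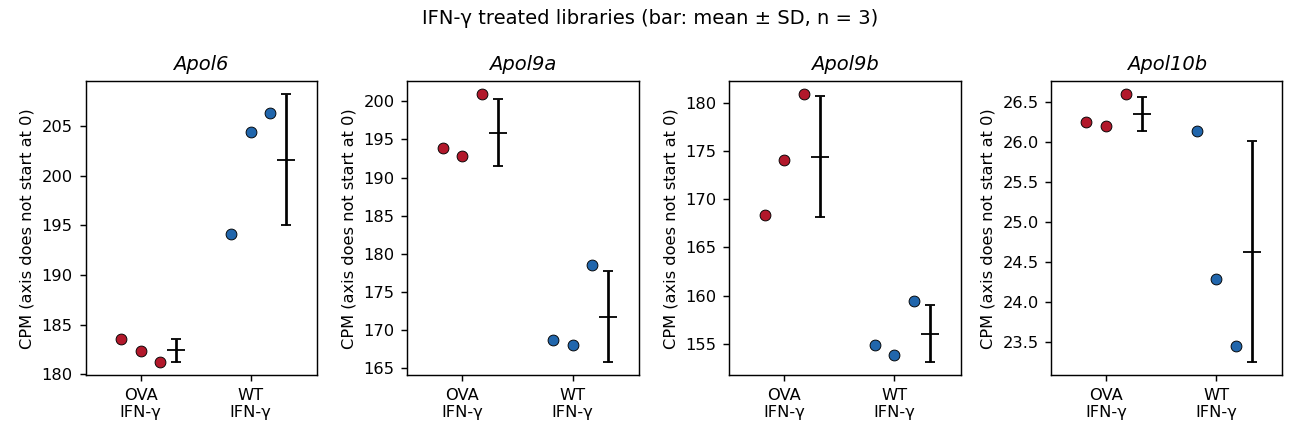
CPM of the 4 genes in the 6 IFN-γ treated libraries, OVA left of WT, with points for libraries and bars for mean ± SD (n = 3). The axes do not start at 0; Apol9a, Apol9b and Apol10b are higher and Apol6 lower in every OVA library than in every WT library.

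**Figure D3:**
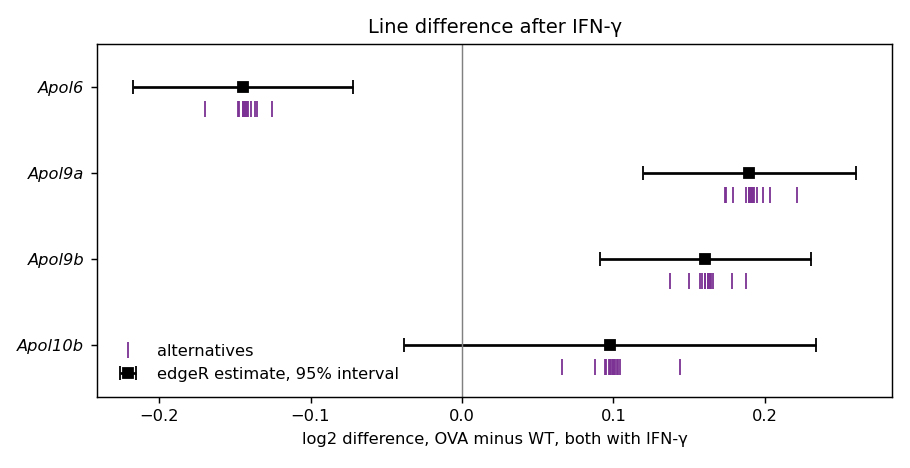
The log2 difference of each gene, OVA minus WT with IFN-γ, with its 95% interval (squares and bars) and the values under 17 other settings of the analysis (ticks). The interval of Apol10b crosses 0, and every tick lies on the same side of 0 as its square.

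A count ratio within each library, chosen after the values were seen, set the opposite directions side by side. Apol6 counts divided by the counts of both Apol9 genes gave 0.507, 0.497 and 0.475 in OVA IFN-γ, against 0.600, 0.635 and 0.610 in WT IFN-γ. The groups did not overlap, at 0.493 ± 0.0165 in OVA IFN-γ and 0.615 ± 0.0181 in WT IFN-γ. It restates the directions of the single genes and was not tested.

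In untreated cells the lines are compared on few counts, in genes that were picked as low in all untreated libraries and passed the count filter through treated ones. The selection did not use the difference between lines, but a fit of the untreated libraries alone filtered out the 4 genes. Their p-values are therefore given as descriptions and decide nothing. Over all tested genes 5.53% were called, 2.98% higher and 2.55% lower in OVA. Apol9a had 18 counts over the untreated OVA libraries and 1 over the untreated WT libraries, a ratio of 17.6 with a counting interval of 2.78 to 734 (edgeR adjusted p = 0.00738). This value is read as a description, since it missed the threshold with DESeq2 (adjusted p = 0.0910) and in edgeR without the untreated WT replicate 2 (adjusted p = 0.0912). Apol9b had 19 counts in untreated OVA and 13 in untreated WT, a log2 difference of 0.51 (SE 0.52, interval -0.59 to 1.61, edgeR adjusted p = 0.643). Apol6 had 8 counts in untreated OVA and 2 in untreated WT, a ratio of 3.92 with an interval of 0.781 to 37.8 (edgeR adjusted p = 0.280). Apol10b had 1 and 0 counts in these groups (edgeR adjusted p = 0.573). A ratio of the size seen for Apol6 was not detectable as a difference at this depth.

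The difference of the IFN-γ responses of the lines rests on the same few untreated counts, and on values that chose the genes. Its test therefore cannot decide whether the responses of these genes differ or are alike. None of the 4 genes passed it. Of all tested genes it called 0.341%, 0.0773% with a higher and 0.264% with a lower response in OVA. DESeq2, which gave no adjusted p for Apol10b, and limma-voom called none of them either. The edgeR adjusted p was 0.0720 for Apol9a, 0.437 for Apol6 and 0.743 for Apol10b. The Apol9a value depended on the setting, with an edgeR adjusted p of 0.0119 without the count filter, 0.0277 with the replicate number in the model and 0.0354 without the WT IFN-γ replicate 3. Apol9b, the one gene with more than 3 counts in every group, had a difference of responses of -0.35 on the log2 scale (SE 0.52, interval -1.45 to 0.753, edgeR adjusted p = 0.877). That interval is wide because the untreated counts are few.

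Apol9a and Apol9b share so much sequence that their separate values depend on how the authors counted reads that map to both, which is not given in the sources used here. Their longest coding transcripts matched at 1452 of 1475 aligned bases (98.44%), whereas the other pairs among the 4 genes matched at 59.99% to 66.90%. Of the 100-base stretches of Apol9a coding transcripts, 40.01% also occurred in another gene, always Apol9b, and 36.65% of those of Apol9b occurred in Apol9a. No 100-base stretch of Apol6 or Apol10b occurred in another gene. The shares depended on the length chosen. At 50 bases they were 55.33% for Apol9a, 52.33% for Apol9b, 6.11% for Apol10b and 2.27% for Apol6. At 150 bases they were 24.61% for Apol9a, 22.48% for Apol9b and 0% for Apol6 and Apol10b. Apol6 shares 64 exon bases on the opposite strand with Mb, the myoglobin gene, which had 6 counts over all libraries. With no strand setting stated, reads of those bases cannot be assigned to either gene.

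Apol9a made up 53.5%, 52.5% and 52.6% of the counts of the pair in OVA IFN-γ, against 52.1%, 52.2% and 52.8% in WT IFN-γ. The groups overlapped, with means of 52.9% ± 0.549 in OVA IFN-γ and 52.4% ± 0.392 in WT IFN-γ (SD, n = 3 each). The difference of 0.515 percentage points gave p = 0.3 in an exact two-sided permutation test, whose smallest possible value is 0.1. In untreated cells the share was 18 of 37 counts in OVA (48.6%, exact Clopper-Pearson interval 31.9% to 65.6%) and 1 of 14 in WT (7.14%, 0.181% to 33.9%). The untreated WT interval pools 2 libraries and rests on 14 counts. Taken alone, untreated WT replicate 1 had an interval of 0.281% to 48.2%. Replicate 2 had 0% to 52.2%, which reaches the lowest treated share. The share was not tested between untreated and treated cells.

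**Figure D4:**
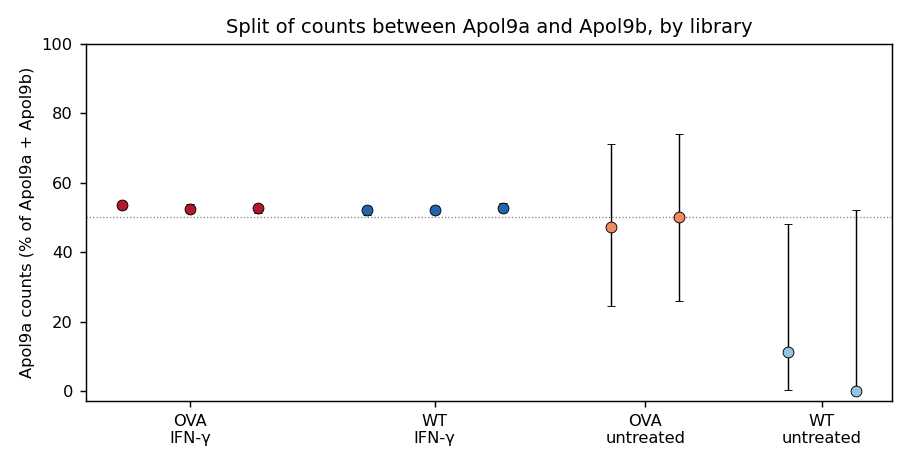
Apol9a counts as a percentage of Apol9a plus Apol9b counts in each library, with exact 95% binomial intervals. The treated libraries lie between 52.1% and 53.5%; in untreated libraries, the intervals are wide because the pair has 5 to 19 counts.

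Most other entries of the family were silent or nearly so in all groups. The reference annotation (GRCm38) places 13 Apol genes or pseudogenes on chromosome 15, in the order Apol6, Apol7a, Apol9a, Apol7b, Apol10a, Apol11a, Apol7c, Apol10b, Apol11b, Apol10c-ps, Apol7e, Apol9b and Apol8. Apol6 lies 331.1 kb from the next of them, with Rbfox2 between, and the expressed genes are not adjacent. Apol7c, Apol10a, Apol11a and Apol10c-ps had 0 counts in all 10 libraries. Apol7a had 15 counts in OVA IFN-γ, 14 in WT IFN-γ and 0 in the untreated libraries of both lines. Apol11b had 13 counts in OVA IFN-γ, 9 in WT IFN-γ and 0 in untreated libraries. Both were too low to be tested, and as members of a multigene family their counts are uncertain. Apol7b, Apol7e and Apol8 had between 1 and 7 counts in each of the 4 groups. Apol7d, which the annotation lists as an antisense RNA on chromosome 1, had 14 counts in OVA IFN-γ, 25 in WT IFN-γ, 10 in untreated OVA and 17 in untreated WT.

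Apold1, which encodes a protein with an apolipoprotein L domain and lies outside the cluster, was the one other family gene that could be tested. It averaged 69.8 ± 1.71 CPM in OVA IFN-γ, 75.2 ± 2.46 in WT IFN-γ, 84.4 ± 0.439 in untreated OVA and 87.3 ± 3.75 in untreated WT. With IFN-γ it fell by 0.27 on the log2 scale in OVA (SE 0.043, edgeR adjusted p = 4.92e-05) and by 0.22 in WT (SE 0.042, edgeR adjusted p = 4.94e-04). Its treated levels did not differ between lines in the test (log2 difference -0.11, edgeR adjusted p = 0.0790).

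**Figure D5:**
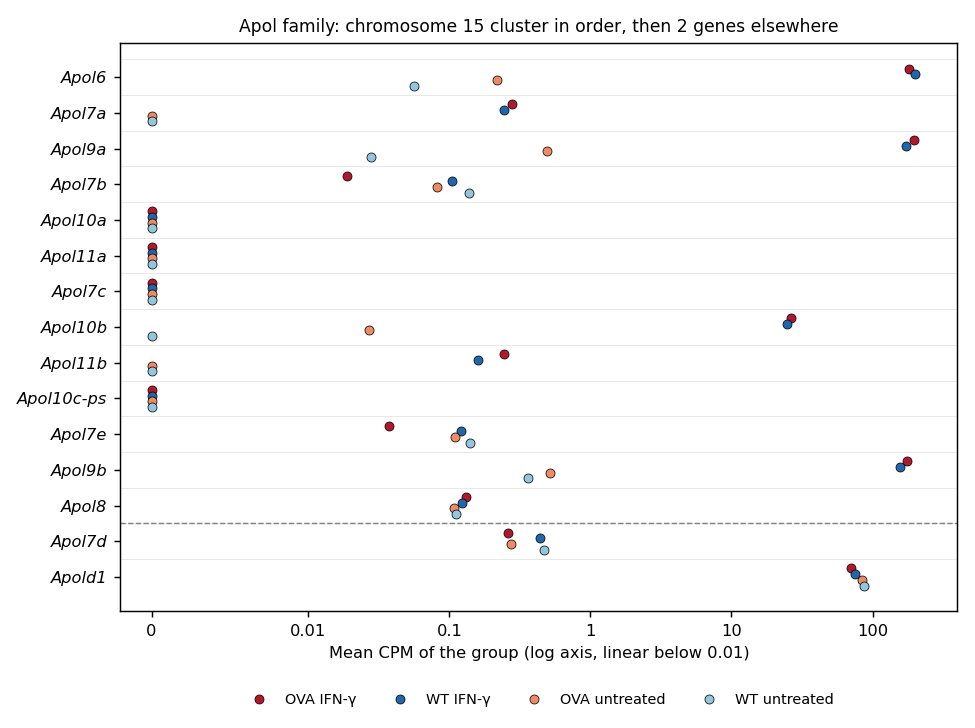
Mean CPM of each Apol family gene in the 4 groups, on a log axis that is linear below 0.01, with the chromosome 15 genes in their order and Apol7d and Apold1 below the dashed line. Apol6, Apol9a, Apol9b and Apol10b are apart from their neighbours in the treated groups.

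The genes next to the family on the chromosome changed in both directions or were not called. Of 23 protein-coding neighbours, 14 were tested, and with IFN-γ 3 rose and 3 fell in OVA, and 4 rose and 3 fell in WT. These counts are near the shares over all tested genes, 48.8% called in OVA and 44.2% in WT, as are the 2 called between treated lines (14.4% over all). Their median log2 change was 0.085 in OVA and 0.14 in WT, against 0.0018 and 0.011 over all tested genes in the same lines. The largest was the rise of 1110038F14Rik, by 1.64 in OVA and 1.70 in WT on the log2 scale. Between treated lines, Foxred2 (-0.46) and Myh9 (-0.28), a nonmuscle myosin heavy chain, were lower in OVA and the other 12 were not called. Myh9 was also lower in untreated OVA than in untreated WT (-0.20, edgeR adjusted p = 9.66e-04). Rbfox2, an RNA-binding splicing factor, had a log2 difference of -0.10 (edgeR adjusted p = 0.162).

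IFN-γ signalling genes set the size of the response of the lines beside the Apol values. Of 16 tested, 14 rose and 2 fell in each line, with median log2 changes of 3.32 in OVA and 3.23 in WT, where 25.9% of all tested genes rose in OVA and 24.5% in WT. Irf1 rose by 5.99 in OVA and 6.04 in WT on the log2 scale, and Irf9 by 3.76 in OVA and 3.68 in WT. Between treated lines 1 of the 16 was higher in OVA, Irf7 (0.34), and 2 were lower, Socs3 (-0.26), an inhibitor of JAK-STAT signalling, and Jak1 (-0.11), a count near the 14.4% called over all genes. Irf1 (-0.09, edgeR adjusted p = 0.0625) and Irf9 (0.07, 0.319) did not pass.

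The guanylate-binding proteins, GTPases that attack pathogen membranes, differed between treated lines in both directions. Of 10 tested, where 14.4% of all genes were called, Gbp11 (log2 difference 0.49) and Gbp3 (0.15) were higher in OVA IFN-γ than in WT IFN-γ, while Gbp5 (-0.26), Gbp7 (-0.11) and Gbp4 (-0.09) were lower and 5 were not called. All 10 rose with IFN-γ in both lines, Gbp2 by 9.81 in OVA and 10.23 in WT on the log2 scale. Gbp7 alone was called between untreated lines, 1.06 higher in OVA (edgeR adjusted p = 0.00529), and its response differed between lines by -1.17 (edgeR adjusted p = 0.0189).

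The lipid-carrying apolipoproteins, which share the name but are a separate group of plasma proteins, had 5 of 16 genes tested. Apoe fell with IFN-γ by 0.10 in OVA and 0.18 in WT and was 0.20 higher in OVA IFN-γ than in WT IFN-γ on the log2 scale (edgeR adjusted p = 1.02e-04). It was also higher in untreated OVA than in untreated WT (0.12, edgeR adjusted p = 0.0397). Apoc4 was called lower with IFN-γ in OVA only (-1.03, edgeR adjusted p = 0.0425), at 0.41 CPM in OVA IFN-γ and 0.84 CPM in untreated OVA. Apod rose in both lines, to 3.71 CPM in OVA IFN-γ and 2.75 CPM in WT IFN-γ. Of 7 tested genes for Pebp1 and phosphatidylethanolamine synthesis, 3 rose and 2 fell with IFN-γ in OVA, and 2 rose and 2 fell in WT, near the 48.8% and 44.2% called over all genes in these lines. Pebp1 itself fell by 0.10 in OVA (edgeR adjusted p = 0.00865) and 0.12 in WT (0.00436). Etnk1, an ethanolamine kinase, rose by 0.39 in OVA and 0.58 in WT, and was the one gene of the 7 called between treated lines (-0.14). Of 12 tested BCL2 family genes, which control mitochondrial cell death, 7 rose in OVA and 4 in WT, where 25.9% and 24.5% of all genes rose, and none fell. Those called in both lines included Bid (1.38 in both lines) and Bak1 (0.81 in OVA and 0.87 in WT). Between treated lines, where 14.4% of all genes were called, Bbc3 (0.61) and Bax (0.28) were higher in OVA and Bcl2 (-0.24) was lower. The other 9 tested genes of this family were not called. Bax (0.32, edgeR adjusted p = 0.00303) and Bcl2 (-0.24, 0.0165) also differed between untreated lines.

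Genes whose log2 CPM followed each Apol gene most closely were ranked by Pearson's r, as a description. Over all 10 samples, which share the step between untreated and treated libraries, 195 to 382 genes had r above 0.99 with a given gene. Apol9b was closest to Gbp2 (r = 0.9998), Igtp, Phf11d, Irgm1 and Ciita, and Apol9a to Cxcl10 (r = 0.9989), Rtp4, Ifih1, Ifit3b and Rigi. Apol6 was closest to Gbp6 (r = 0.9996), Gbp3, Parp14, Trim25 and Gsdmd, and Apol10b to Casp12 (r = 0.9996), Ube2l6, Csf1, H2-T22 and Igtp. With a prior count of 0.5 in place of 2, 4 of these 5 genes remained for Apol9b, 2 for Apol6, 1 for Apol10b and 0 for Apol9a. Over the 6 treated samples, which share the split between lines, the closest were Trim21 for Apol9a (r = 0.9987), Gm56730 for Apol6 (r = 0.9990) and Erbb3 for Apol10b (r = 0.9972). The next were Akr1a1, Ubb, Asb6 and Trmt13 for Apol9a. Cables1 (r = 0.9965), Atg12, Tmem222 and Ifit3 were among the closest to Apol9b. For Apol6 they were Zbtb4, Col4a1, Klhl17 and Mfsd13a, and for Apol10b Gem, Miga2, Usp3 and Gm15832.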

How the data were processed

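The authors deposited a table of unnormalised read counts, with Ensembl genes in rows and the 10 libraries in columns. HISAT2 2.0.5, featureCounts 1.6.0 and build GRCm39 come from the submitters' processing notes. No source used here gives the annotation release, the strand setting or the treatment of multi-mapping reads. Per the labels' protocols the libraries were poly-A selected; tissue is mentioned in the extraction text only, and the samples were taken as the named cell lines.

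Counts were analysed in R 4.3.3 with edgeR 4.0.16 (TMM factors, filterByExpr on group, quasi-likelihood F test, two-sided). All 10 samples were fitted together with 4 group means, and p was adjusted by Benjamini-Hochberg over 15526 genes at a threshold of 0.05. Of the 77175 entries, 39963 had no counts. Standard errors used at least Poisson variance. A gene with 3 or fewer counts in a group got no fitted fold. The steps were tested on simulated data. Whether replicates came from separate cultures is not labelled, so p-values reflect spread among these samples that may be technical.

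Alternatives were DESeq2 1.42.0, limma-voom (limma 3.58.1), a filter at 1 CPM in 5 samples or none, the replicate number as a block, a fit of the compared groups alone, adjusted p under 0.01, CPM without TMM, other pseudocounts, and each library left out in turn. The genes and lists were chosen with earlier results of these data known. Named were the 4 genes, every Apol gene with counts, up to 4 called genes of each list with the largest change plus Irf1, Irf9 and Gbp2, and the 5 genes most like each, of which some are not reported here. Gbp4, Pebp1, Rbfox2 and Mb were added after their values were seen. Promoter sequences come from RefSeq (GRCm38.p6), and transcripts and gene order from GENCODE M21 (GRCm38), so coordinates of other features are not given.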

Additional observations from a re-analysis of the deposited data

How the results depend on the processing

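The directions and calls of Apol6, Apol9a, Apol9b and Apol10b between treated lines held under all 17 alternatives, with log2 differences of -0.17 to -0.13 for Apol6 (adjusted p 0.00206 to 0.0458), 0.17 to 0.22 for Apol9a (2.18e-06 to 0.00955), 0.14 to 0.19 for Apol9b (1.79e-04 to 0.0225) and 0.066 to 0.144 for Apol10b (0.229 to 0.640). Apol9a between untreated lines had an adjusted p of 0.0910 with DESeq2 and 0.00436 to 0.0912 with a library left out. For its difference of responses the adjusted p was 0.0119 without the filter, 0.0277 with the replicate block and 0.0354 to 0.324 with a library left out. Without the untreated OVA replicate 2, which holds the only untreated count of Apol10b, the untreated comparison and the difference of responses of that gene have no value.

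Of the counts of called genes, the 2229 between treated lines became 1454 with DESeq2, 1099 at an adjusted p under 0.01 and 1431 to 2408 with a library left out. The 859 between untreated lines became 552, 381 and 350 to 1012, and the 53 for the difference of responses became 103, 21 and 21 to 107, with 284 without the filter and 165 with the block. With a library left out, IFN-γ against untreated called 5958 to 7626 genes in OVA and 5339 to 6896 in WT. The left-out libraries that moved a count by over 1.5 times were OVA IFN-γ replicate 3 (1462) and WT IFN-γ replicate 2 (1431) between treated lines, and each untreated library between untreated lines (350 to 378). For the difference of responses they were untreated OVA replicates 1 (23) and 2 (22), WT IFN-γ replicate 3 (107) and untreated WT replicate 1 (21). The cause of these changes was not tested. No pairing of samples by replicate number was seen, with no correlation of deviations above 0.1 among 13 same-number pairs (-0.072 to 0.035). In groups of 2 the deviations mirror each other, so this check cannot exclude pairing. The Apol9a share differed by 0.199 to 0.741 percentage points. The untreated-only fit filtered out the 4 genes, and DESeq2 gave no adjusted p for Apol10b in the difference of responses. Depth limits the untreated comparisons, which rest on 0 to 10 counts per library.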
